A study of Mus musculus with 6 samples.

Results

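The apical-basal polarity genes described here are *Pard3*, *Pard6b*, *Prkci*, *Prkcz*, *Ezr*, *Crb3*, *Mark2*, *Llgl1*, *Scrib* and *Cdc42*, 10 genes picked by symbol from a table of 55774 genes. All 10 symbols matched 1 Ensembl identifier in the table, and all 10 genes were expressed highly enough to be tested. The libraries were made from wild-type mouse blastocysts, in pools of 10, after culture from the 2-cell stage in CZB medium with extracellular vesicles from human Fallopian tubes. In the oEV-EMT group (n = 3 libraries) the vesicles came from women with endometriosis, and in the oEV-ctrl group (n = 3) from women without it, who had uterine fibroids by the sample labels, while the published methods name cervical intraepithelial neoplasia. The embryos were flushed from the oviducts of ICR females. Every library thus received human vesicles, no vesicle-free library was analysed here, and each library averages the trophectoderm and the inner cell mass of 10 embryos. The labels do not say whether the 3 pools of a group came from separate cultures, so that the spread between them may be partly technical.

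Polarity is among the first asymmetries of the mouse embryo. From the compacting morula on, outer cells collect a PAR-atypical protein kinase C (aPKC) cap and ezrin-rich microvilli at the surface that faces outwards, while kinases of the PAR-1 family and the Scribble proteins mark the contacts between cells. Cells that inherit the apical cap become trophectoderm, the epithelium that pumps fluid into the blastocyst cavity, and cells without it become inner cell mass. The transcription factors TFAP2C and TEAD4 are known to act upstream of the cap.

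In 1 of the 10 genes, *Prkcz*, every oEV-EMT library lay above every oEV-ctrl library, as in 18.1% of all tested genes. Its adjusted p-value was 0.266 (limma). *Prkcz* encodes the zeta form of aPKC and has a close copy in the genome. Positions are those of GRCm38, the build of the files, and *Prkcz* (ENSMUSG00000029053) is at chr4:155260129-155361361, minus strand. The copy, *Prkcz2*, is annotated as a processed pseudogene at chr7:27882755-27884510, minus strand. Of 1754 bases of the *Prkcz* coding sequence aligned to *Prkcz2*, 1731 were identical, or 98.7%, and 302 bases in a row were identical from position 1123 to 1424 of the coding sequence. The stretch of 100 bases with the most differences, positions 288 to 387 of both, is shown because it is where reads of the pair are most easily told apart, and capitals mark the 7 bases that differ.
Prkcz: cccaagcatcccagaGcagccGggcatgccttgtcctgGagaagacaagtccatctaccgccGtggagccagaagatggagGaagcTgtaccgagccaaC
Prkcz2: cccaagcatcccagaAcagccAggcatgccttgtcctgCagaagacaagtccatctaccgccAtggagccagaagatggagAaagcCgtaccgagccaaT
Over the whole aligned coding sequence 23 bases differ. A read within that aligned sequence that covers none of these 23 bases can be assigned to either gene. Of the 50-base stretches of *Prkcz*, 14.8% occur in *Prkcz2*, and of those of *Prkcz2*, 55.7% occur in *Prkcz*.

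The promoters of *Pard6b*, *Prkci* and *Prkcz* are shown because these genes encode a PAR6 form and the iota and zeta forms of aPKC. Their differences between the groups did not point the same way. Each sequence holds the 250 bases before the first RefSeq start site of the gene (GRCm38.p6), 5′ to 3′ on the strand of the gene. Capitals mark matches to the TFAP2 motif GCCNNNGGC, which reads the same on both strands, and to the TEAD motif GGAATG or its reverse complement CATTCC. The motifs do not overlap in these windows.
Pard6b, chr2:168080754-168081003, plus strand: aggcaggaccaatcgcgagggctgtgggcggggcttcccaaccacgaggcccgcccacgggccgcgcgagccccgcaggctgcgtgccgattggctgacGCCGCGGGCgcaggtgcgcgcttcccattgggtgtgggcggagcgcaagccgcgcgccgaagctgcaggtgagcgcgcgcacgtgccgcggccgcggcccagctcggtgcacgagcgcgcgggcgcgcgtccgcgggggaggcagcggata
Prkci, chr3:30995521-30995770, plus strand: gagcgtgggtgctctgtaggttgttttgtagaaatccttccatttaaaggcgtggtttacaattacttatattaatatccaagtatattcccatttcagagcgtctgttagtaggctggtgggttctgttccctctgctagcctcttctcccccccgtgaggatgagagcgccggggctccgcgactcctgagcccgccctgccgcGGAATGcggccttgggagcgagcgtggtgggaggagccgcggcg
Prkcz, chr4:155361429-155361678, minus strand: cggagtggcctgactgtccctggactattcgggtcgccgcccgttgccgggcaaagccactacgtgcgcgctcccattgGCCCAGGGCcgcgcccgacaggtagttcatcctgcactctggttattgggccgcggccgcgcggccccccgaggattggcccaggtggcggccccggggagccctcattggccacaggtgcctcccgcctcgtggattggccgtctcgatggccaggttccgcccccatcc
The TFAP2 motif ended 142 bases before the start of *Pard6b* and 162 bases before that of *Prkcz*, and the TEAD motif ended 38 bases before the start of *Prkci*. *Pard3* had 2 TFAP2 matches at its first start site, and *Crb3* had a TEAD match that ended 237 bases before its first start. No match to either motif lay at *Ezr*, *Mark2*, *Llgl1* or *Cdc42*, or at the later start sites of *Pard3*, *Prkcz* and *Crb3*. The windows with a TFAP2 match held from 70.8% to 79.2% G or C, for which the shares over all promoters are not matched. Binding at the matches was not tested. Of 32851 promoters in the reference, 13.7% hold the TFAP2 motif and 12.6% the TEAD motif in the same 250 bases, so single matches are common. RefSeq promoters were at hand for 9 of the 10 genes. RefSeq gives *Prkcz* 3 start sites, and the deposited value sums over its transcripts.

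Among the 10 genes, levels spanned a wide range. FPKM (fragments per kilobase of transcript per 1000000 fragments) are per length and allow this comparison. *Cdc42*, the small GTPase that recruits PAR6 and aPKC, was far above the others, with a lowest value of 643, a median of 831 and a highest of 992 FPKM over the 6 libraries. *Crb3*, *Prkcz*, *Ezr*, *Pard6b*, *Prkci* and *Pard3* followed, with means over the 6 libraries of 40.1, 25.9, 17.9, 13.0, 9.91 and 7.26 FPKM. In this order the range of each gene overlapped that of the next. The basolateral genes *Llgl1*, *Mark2* and *Scrib* came last, with means of 2.37, 2.28 and 2.07 FPKM and overlapping ranges. This order is that of the listed genes and not of the basolateral role. Their paralogs *Llgl2* and *Mark3* had means of 11.5 and 16.8 FPKM, while *Mark1* and *Mark4* had 0.513 and 1.02. No library of *Llgl1*, *Mark2* or *Scrib* apart from *Mark2* in oEV-EMT 1 reached the lowest value of *Pard3*, which was 3.39 FPKM.

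**Figure D1:**
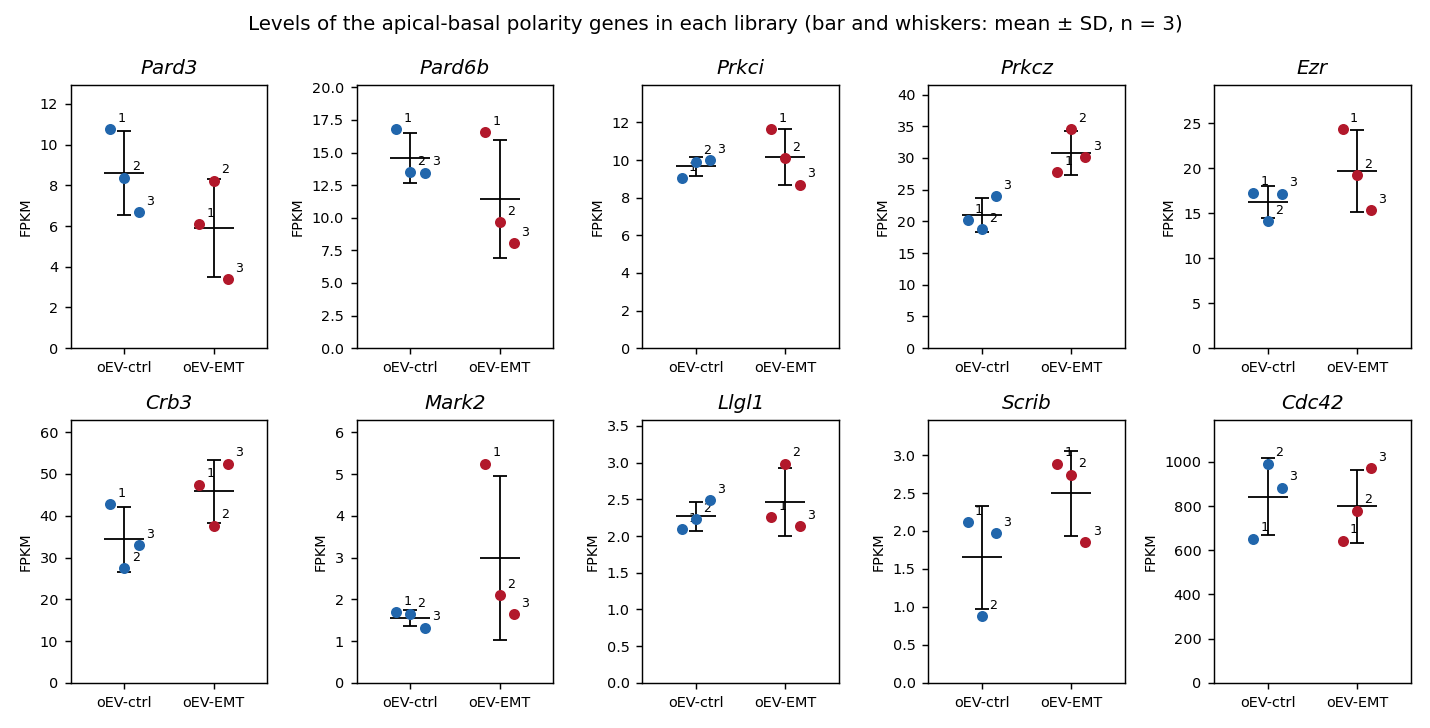
FPKM of the 10 polarity genes in each library, with 1 panel per gene, the library number beside each point, and the mean ± SD of 3 libraries per group as bars. In *Prkcz* the oEV-EMT points (27.8 to 34.6 FPKM) all lie higher than the oEV-ctrl points (18.8 to 24.0 FPKM), and in the other 9 genes the groups overlap.

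Of all genes, 11924 reached 1 FPKM in 3 or more libraries and were tested. A gene was called where its adjusted p-value was 0.05 or less and the groups differed by 1 or more on the log2(FPKM + 1) scale (limma, Benjamini-Hochberg adjustment). By this rule 0 genes were called, 0% of those tested, beside 1527 genes higher and 304 lower in oEV-EMT at an unadjusted p-value of 0.05 or less. Accordingly, 0 of the 10 polarity genes were called, and their smallest adjusted p-value was 0.266, that of *Prkcz*. Without adjustment, 1 of the 10 had a p-value of at most 0.05 and was higher in oEV-EMT, against 12.8% of all tested genes in that direction and 2.55% in the other. The groups were without overlap in 1 of the 10 with oEV-EMT above, and in 0 with oEV-EMT below, against 18.1% and 4.34% of all tested genes. These shares are near the background. The count of genes without overlap was 2 without library oEV-EMT 1, 3 without oEV-EMT 2, 5 without oEV-EMT 3, 2 without oEV-ctrl 1, 1 without oEV-ctrl 2 and 2 without oEV-ctrl 3, where the share over all genes lay between 28.4% and 39.7%. The median log2 fold change of the 10 genes was 0.16, beside 0.17 over all tested genes, and the median of their absolute values was 0.40, beside 0.26.

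**Figure D2:**
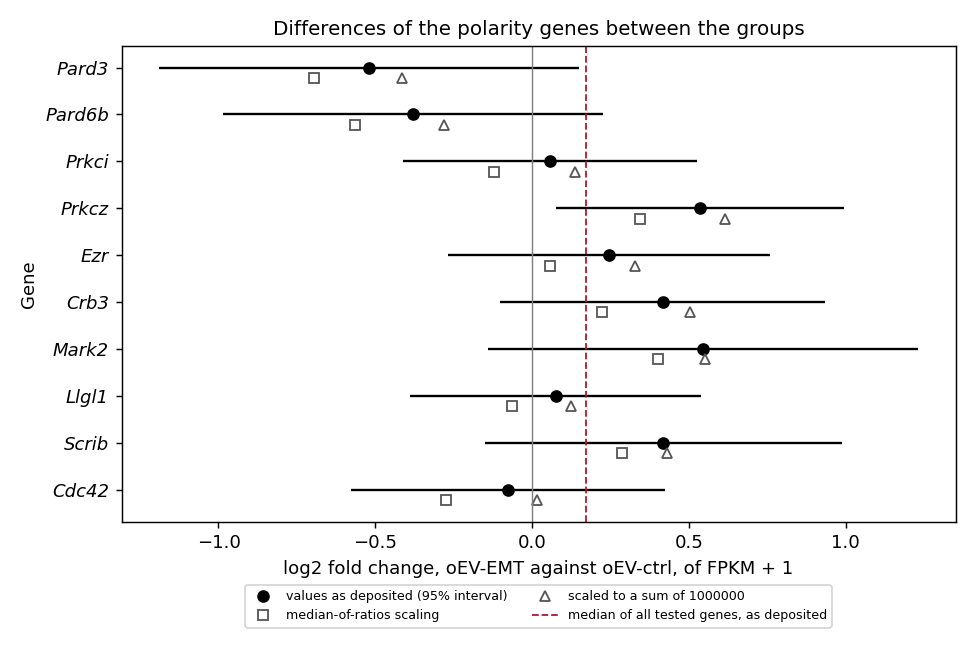
Log2 fold change of each polarity gene on the log2(FPKM + 1) scale, oEV-EMT against oEV-ctrl, with 95% intervals from limma for the values as deposited (filled points) and the estimates under different scalings between libraries (open symbols). The intervals of 9 of the 10 genes include 0, and that of *Prkcz* reaches from 0.07 to 0.99. The dashed line marks the median of all tested genes, 0.17.

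The PAR complex and aPKC form the core of the apical cap, in which PAR3 is the scaffold, PAR6 the adaptor for Cdc42, and aPKC the kinase. *Prkcz* measured 27.8, 34.6 and 30.1 FPKM in oEV-EMT and 20.2, 18.8 and 24.0 in oEV-ctrl. Every oEV-EMT library was above every oEV-ctrl library, with means of 30.8 ± 3.46 and 21.0 ± 2.72 FPKM (SD, n = 3 each). On the log2 scale the difference was 0.53 ± 0.21 (SE, adjusted p = 0.266, limma), and it exceeded the all-gene median by 0.36. It was 0.28 after upper quartile scaling (adjusted p = 0.576, limma), 0.34 after median-of-ratios scaling and 0.62 after scaling each library to 1000000, and the groups stayed apart in these. Listed separately, *Prkcz2* measured 4.76, 6.22 and 4.33 FPKM in oEV-EMT and 3.18, 3.25 and 5.44 in oEV-ctrl, where the groups overlapped. *Prkcz* held between 81.5% and 87.4% of the FPKM summed over the pair. On that sum the groups remained apart, with a log2 difference of 0.51.

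*Prkci* (ENSMUSG00000037643, chr3:30995747-31052959, plus strand), which encodes the iota form of aPKC, measured 11.7, 10.1 and 8.69 FPKM in oEV-EMT and 9.05, 9.92 and 10.0 in oEV-ctrl. The oEV-EMT values reached both above and below all oEV-ctrl values. Its log2 fold change was 0.06, with a 95% interval from -0.41 to 0.53 (adjusted p = 0.915, limma), and -0.12 after median-of-ratios scaling, while relative to the median of each fit over all genes it was -0.11 and -0.13. Summed over *Prkci* and *Prkcz*, aPKC mRNA was 39.5, 44.7 and 38.8 FPKM in oEV-EMT and 29.3, 28.7 and 34.0 in oEV-ctrl, without overlap. Most of that sum was *Prkcz* in every library, so the lack of overlap is not a result separate from that of *Prkcz*. The ratio of *Prkcz* to *Prkci* was 2.38, 3.42 and 3.46 in oEV-EMT and 2.23, 1.89 and 2.40 in oEV-ctrl, so that library oEV-EMT 1 fell within the oEV-ctrl range.

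*Pard6b* (ENSMUSG00000044641, chr2:168081004-168101203, plus strand), the PAR6 form known from preimplantation embryos, measured 16.6, 9.64 and 8.08 FPKM in oEV-EMT and 16.8, 13.5 and 13.5 in oEV-ctrl. The libraries oEV-EMT 2 and 3 lay below all oEV-ctrl libraries, and oEV-EMT 1 lay among them. The log2 fold change of *Pard6b* was -0.38 (95% interval from -0.98 to 0.23, adjusted p = 0.530, limma). Without library oEV-EMT 1 it was -0.66 and the groups did not overlap (adjusted p = 0.207), and it was -0.18 without oEV-EMT 3 and -0.28 without oEV-ctrl 1, with overlap. *Pard3* (ENSMUSG00000025812, chr8:127063893-127612286, plus strand), the scaffold, measured 6.10, 8.23 and 3.39 FPKM in oEV-EMT and 10.8, 8.38 and 6.67 in oEV-ctrl. Library oEV-EMT 2 lay within the oEV-ctrl range, and the other two lay below it. The log2 fold change of *Pard3* was -0.52 (95% interval from -1.19 to 0.15, adjusted p = 0.434). It was -0.23 without library oEV-EMT 3, -0.76 without library oEV-EMT 2 and -0.67 without oEV-ctrl 3, and the groups did not overlap in either of the latter. After median-of-ratios scaling *Pard3* and *Pard6b* were the 2 of the 10 genes with an unadjusted p-value of at most 0.05, both lower in oEV-EMT, against 6.40% of all tested genes lower and 6.43% higher. Their log2 fold changes were then -0.70 and -0.56 with adjusted p-values of 0.359 and 0.385 (limma), and *Prkcz* was no longer among them.

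*Cdc42* (ENSMUSG00000006699, chr4:137319696-137357720, minus strand) measured 643, 779 and 973 FPKM in oEV-EMT and 653, 992 and 883 in oEV-ctrl. The ranges nearly coincided, with means of 798 ± 165 and 843 ± 173 FPKM (SD, n = 3 each). The log2 fold change was -0.08, with a 95% interval from -0.58 to 0.42 (adjusted p = 0.890, limma), and 0.02 when each library was scaled to 1000000, while the difference from the median over all genes was -0.25 and -0.22. The lowest value of each group was that of the library numbered 1.

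Crumbs and ezrin mark the apical membrane itself. *Crb3* (ENSMUSG00000044279, chr17:57059105-57065918, plus strand), a short transmembrane protein that binds the PALS1 scaffold, measured 47.5, 37.6 and 52.5 FPKM in oEV-EMT and 42.7, 27.4 and 33.0 in oEV-ctrl. Library oEV-EMT 2 lay below oEV-ctrl 1, and the other oEV-EMT libraries lay above all oEV-ctrl libraries. For *Crb3* the log2 fold change was 0.42 (95% interval from -0.10 to 0.93, adjusted p = 0.419, limma), 0.22 after median-of-ratios scaling and, with 1 library omitted, between 0.27 (without oEV-ctrl 2) and 0.58 (without oEV-ctrl 1). *Ezr* (ENSMUSG00000052397, chr17:6738041-6782784, minus strand), which links the apical membrane to actin in microvilli, measured 24.4, 19.2 and 15.3 FPKM in oEV-EMT and 17.3, 14.2 and 17.2 in oEV-ctrl. Library oEV-EMT 3 lay between the oEV-ctrl values. *Ezr* had a log2 fold change of 0.24 (95% interval from -0.27 to 0.76, adjusted p = 0.644), and it was -0.0078 after upper quartile scaling, or 0.07 and 0.04 relative to the median over all genes. It was 0.08 without library oEV-EMT 1 and 0.40, without overlap, when oEV-EMT 3 was omitted.

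The basolateral members were close to the level below which genes were not tested, so that the scale understates their fold changes. *Mark2* (ENSMUSG00000024969, chr19:7275396-7341860, minus strand), a PAR-1 kinase that keeps PAR3 off the lateral membrane, measured 5.25, 2.10 and 1.64 FPKM in oEV-EMT and 1.69, 1.64 and 1.33 in oEV-ctrl. Library oEV-EMT 1 alone was far above the rest, and oEV-EMT 3 lay within the oEV-ctrl range. *Mark2* had a log2 fold change of 0.54 (95% interval from -0.14 to 1.23, adjusted p = 0.425, limma), and 0.17 without library oEV-EMT 1. *Scrib* (ENSMUSG00000022568, chr15:76047158-76069784, minus strand), the scaffold of the Scribble complex, measured 2.89, 2.74 and 1.85 FPKM in oEV-EMT and 2.11, 0.878 and 1.97 in oEV-ctrl. The groups overlapped through oEV-EMT 3, and oEV-ctrl 2 held the lowest value. For *Scrib* the log2 fold change was 0.42 (95% interval from -0.15 to 0.99, adjusted p = 0.462), and it was 0.19 without library oEV-ctrl 2, 0.24 after upper quartile scaling and 0.63 with a pseudocount of 0.1. *Llgl1* (ENSMUSG00000020536, chr11:60699723-60714186, plus strand), which aPKC phosphorylates to exclude it from the apical side, measured 2.26, 2.99 and 2.14 FPKM in oEV-EMT and 2.09, 2.23 and 2.49 in oEV-ctrl. Its log2 fold change was 0.07 (95% interval from -0.39 to 0.54, adjusted p = 0.885), the groups overlapped, and the value was -0.06 after median-of-ratios scaling, or -0.10 and -0.07 relative to the median over all genes. A stretch of 64 bases of the *Llgl1* locus is shared with *Flii* on the opposite strand (mean of 6.44 FPKM), and the sources used here name no strand-specific counting.

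How the members varied together over the 6 libraries is given as a description, since all values of a library share its depth and composition. Pearson's r of log2(FPKM + 1) was computed for all pairs of the 10 genes, and only the extremes are given. The highest were 0.86 between *Ezr* and *Mark2*, 0.85 between *Ezr* and *Scrib* and 0.79 between *Prkci* and *Mark2*. The lowest were -0.80 between *Ezr* and *Cdc42*, -0.73 between *Scrib* and *Cdc42*, and -0.64 between *Pard6b* and *Prkcz*. The mean of the standardized values of the 10 genes was 0.66, 0.39 and -0.36 in oEV-EMT and -0.16, -0.46 and -0.07 in oEV-ctrl, so that the groups overlapped and oEV-EMT 1 was highest. The 5 tested genes with the highest r to this mean were *Pipox*, *Plk1*, *Gpd2*, *Stxbp2* and *Jmjd4*, with r from 0.992 to 0.994 over 6 libraries.

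For 7 of the genes the share within the paralog family was taken per library, a measure that no scaling between libraries can change. *Pard3* held at least 99.67% of the FPKM of itself and *Pard3b*, and *Crb3* at least 99.6% of that of *Crb1*, *Crb2* and itself. *Pard6b* held 76.5%, 66.9% and 67.6% of the PAR6 FPKM in oEV-EMT and 69.7%, 79.8% and 74.9% in oEV-ctrl, with *Pard6a* (1.64 to 4.94 FPKM) and *Pard6g* (1.43 to 2.75 FPKM) far below it in every library. In other families the member was the minor form. *Llgl1* held from 13.8% to 25.4% beside *Llgl2*, and *Ezr* from 13.4% to 21.3% beside *Rdx* and *Msn*, of which *Msn* was highest in every library.
*Mark2* was the only member whose family share did not overlap between the groups. Its share was 19.3%, 11.2% and 9.80% in oEV-EMT and 7.53%, 9.09% and 6.58% in oEV-ctrl, with *Mark3* the main form in every library. The means were 13.4% ± 5.11 and 7.74% ± 1.27 (SD, n = 3 each). A two-sided exact permutation test gave p = 0.1, which 3 libraries against 3 cannot go below, and 0.467 adjusted over 7 families. The difference of 5.67 percentage points was 2.74 without library oEV-EMT 1. *Prkci* held 29.6%, 22.6% and 22.4% of the aPKC FPKM in oEV-EMT and 30.9%, 34.6% and 29.4% in oEV-ctrl, where oEV-EMT 1 lay just above the lowest oEV-ctrl value (exact permutation test, p = 0.2, adjusted p = 0.467). The exact p-values of the remaining families lay between 0.2 and 0.9.

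**Figure D3:**
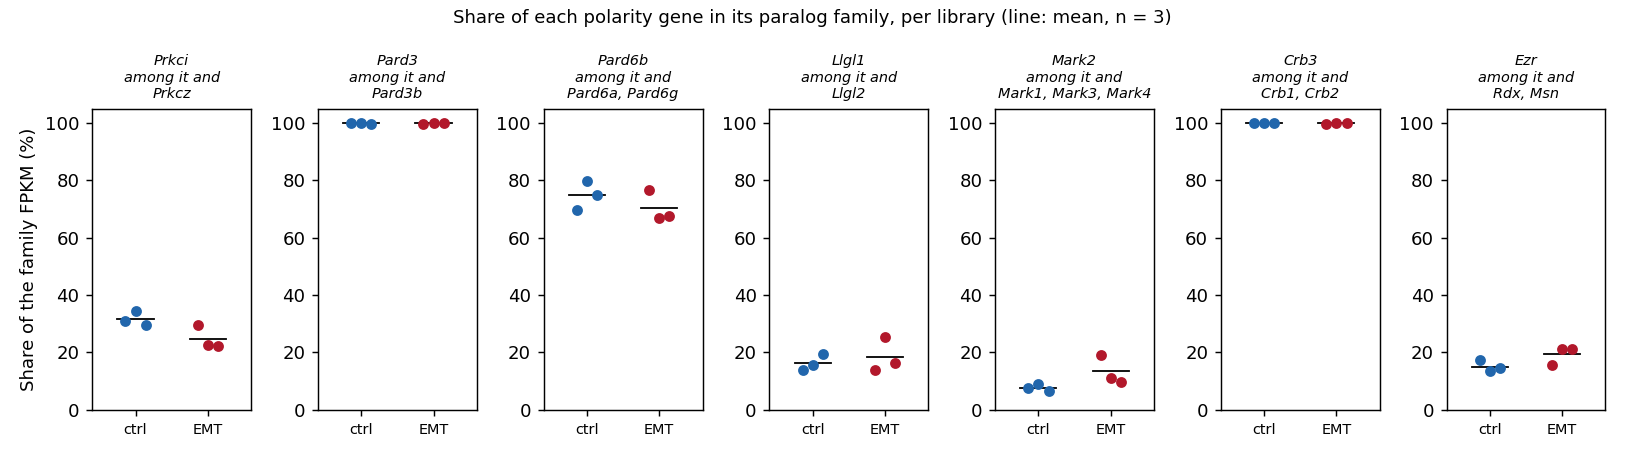
Share of each polarity gene in the summed FPKM of its paralog family, in percent, with 1 point per library and a line at the mean of 3. *Pard3* and *Crb3* make up nearly all of their families, *Mark2* ranges from 9.80% to 19.3% in oEV-EMT and from 6.58% to 9.09% in oEV-ctrl, and the groups overlap in the other families.

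A wider list of 78 polarity genes in 7 role groups, the 10 members included, was read in the same fit. Of the 68 genes beside the members, 54 were tested, and 0 of them were called (limma). Without adjustment, 4 had a p-value of at most 0.05, all higher in oEV-EMT. The groups did not overlap in 13 of the 54, with oEV-EMT above in 10 and below in 3, beside 22.4% of all tested genes, 18.1% above and 4.34% below. That split turned with the scaling, to 3 above and 9 below after median-of-ratios scaling, when 9.85% of all tested genes lay above and 10.3% below. Of the 64 tested genes of the whole list, 5 had an unadjusted p-value of 0.05 or less in the values as deposited, all higher in oEV-EMT, where 12.8% of all tested genes were higher and 2.55% lower. After that scaling 3 of the 64 were higher and 9 lower, beside 6.43% and 6.40% of all tested genes. The median log2 fold change of the 54 was 0.12. The 14 untested genes were *Pard3b*, *Crb1*, *Crb2*, *Mpdz*, *Lin7a*, *Lin7b*, *Podxl*, *Stk10*, *Dlg2*, *Dlg4*, *Dlg5*, *Lrrc7*, *Mark1* and *Mark4*.

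**Figure D4:**
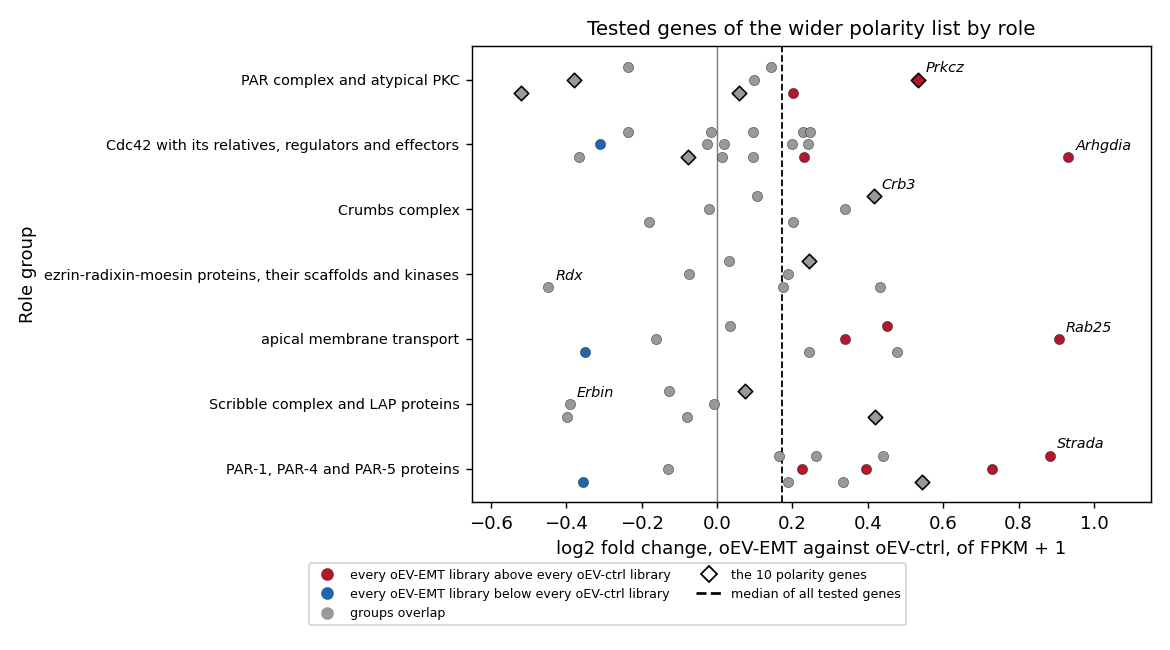
Log2 fold change of the 64 tested genes of the wider polarity list, on the log2(FPKM + 1) scale, by role group. Diamonds are the 10 polarity genes, colours mark genes without overlap between the groups, the gene with the smallest p-value in each role group is named, and the dashed line is the median of all tested genes, 0.17.

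The apical transport genes lay to both sides. Of the 8 tested, 4 were without overlap, 3 above and 1 below, beside 18.1% and 4.34% of all tested genes. So few genes give no contrast with these shares. Here and in the next 2 paragraphs, overlap was read in the values as deposited. After median-of-ratios scaling only 3 of the 54 genes beside the members lay above. *Rab25*, an epithelial GTPase of recycling endosomes, measured 11.7, 10.9 and 14.9 FPKM in oEV-EMT and 5.96, 6.52 and 5.97 in oEV-ctrl. Its log2 fold change was 0.91 ± 0.22 (SE, adjusted p = 0.148, limma), with the smallest adjusted p-value of the wider list. *Rab8a*, a GTPase of apical vesicle delivery, had a log2 fold change of 0.45 (adjusted p = 0.342), and *Anxa2*, a membrane-binding annexin, one of 0.34 (adjusted p = 0.406), both without overlap. *Myo5b*, the motor that moves such vesicles, measured 16.0, 15.4 and 14.5 FPKM in oEV-EMT and 20.5, 18.9 and 19.9 in oEV-ctrl. Every oEV-EMT library of *Myo5b* was below every oEV-ctrl library, with a log2 fold change of -0.35 (adjusted p = 0.418). *Myo5b*, *Wasl* and *Cab39*, the 3 genes below in every oEV-EMT library, are named after their values were seen.

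The PAR-4 kinase LKB1, encoded by *Stk11*, acts in a complex with the pseudokinase STRAD and the scaffold MO25. *Strada* measured 13.7, 16.6 and 13.0 FPKM in oEV-EMT and 5.67, 7.29 and 9.45 in oEV-ctrl, without overlap, and its log2 fold change was 0.88 ± 0.24 (SE, adjusted p = 0.164, limma). *Cab39*, which encodes MO25, measured 29.5, 26.5 and 30.0 FPKM in oEV-EMT and 44.4, 34.4 and 32.9 in oEV-ctrl, and its log2 fold change was -0.36 (adjusted p = 0.437). The 2 partners thus lay apart in opposite directions, and *Stk11* overlapped, from 3.52 to 9.30 FPKM in oEV-EMT and from 4.28 to 5.70 in oEV-ctrl. Among the 14-3-3 proteins (PAR-5), *Sfn* had a log2 fold change of 0.73 (adjusted p = 0.254) and *Ywhae* one of 0.40 (adjusted p = 0.348), with oEV-EMT above in every library. In the group of PAR-1, PAR-4 and PAR-5 genes, 5 of 12 tested genes were without overlap as deposited, 4 above and 1 below. The shares over all tested genes were 18.1% and 4.34%.

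Around *Cdc42*, *Arhgdia* measured 43.0, 31.0 and 19.3 FPKM in oEV-EMT and 13.8, 12.7 and 19.2 in oEV-ctrl. The groups were separated by the small gap between oEV-EMT 3 and oEV-ctrl 3, and the log2 fold change was 0.93 ± 0.30 (SE, adjusted p = 0.204, limma). *Wasl*, an actin-nucleating effector of Cdc42, had a log2 fold change of -0.31 (adjusted p = 0.524) with oEV-EMT below, and the Cdc42 exchange factor *Itsn2* one of -0.37 (adjusted p = 0.508). In the Cdc42 group 3 of 16 tested genes were without overlap as deposited, 2 above and 1 below. In the Crumbs group, 0 of 6 tested genes were without overlap, and so few genes give no contrast with the 22.4% over all tested genes. *Epb41l5* had a log2 fold change of 0.34 (adjusted p = 0.503) and *Lin7c* one of 0.20 (adjusted p = 0.741). The ezrin group, with 0 of 7, included *Rdx* at -0.45 (adjusted p = 0.508) and the ezrin-binding scaffold *Slc9a3r2* at 0.43 (adjusted p = 0.509). The Scribble group also had 0 of 7, with *Erbin* at -0.39 (adjusted p = 0.424) and *Dlg3* at -0.40 (adjusted p = 0.486).

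Polarity genes differ between the cell types of a blastocyst, and in a pool fewer cells of a type and less RNA per cell cannot be told apart. The markers were read only in the values as deposited, where 18.1% of all tested genes had oEV-EMT above and 4.34% below. After median-of-ratios scaling these shares were 9.85% and 10.3%. All 9 trophectoderm markers were detected, among them *Krt8*, *Krt18* and *Cdx2*, and 0 of the 9 were without overlap. The summed level of the trophectoderm markers was 3153 to 4775 FPKM in oEV-EMT and 3098 to 4863 in oEV-ctrl, most of it *Krt8* and *Krt18*. Of 7 epiblast markers, *Nanog*, *Pou5f1* and *Fgf4* lay above in every oEV-EMT library, while *Sox2* measured 3.24, 1.13 and 1.23 FPKM in oEV-EMT and 3.17, 1.99 and 2.13 in oEV-ctrl. The list, led by *Nanog* and *Tdgf1*, summed to 106 to 147 FPKM in oEV-EMT and 59.2 to 103 in oEV-ctrl, without overlap. Of 6 primitive endoderm markers, *Gata4* and *Sox7* lay above, with sums of 30.9 to 47.9 and 31.1 to 37.2 FPKM. Their part in the values of *Prkcz* was not tested. The cumulus markers *Amh*, *Inhba* and *Ptx3* were listed at 0 in all 6 libraries, *Foxl2* (at most 0.0241 FPKM) and *Cyp11a1* (1.00 to 1.18 FPKM in oEV-EMT and 1.19 to 2.36 in oEV-ctrl) lay below in every oEV-EMT library, and the 8 genes of that list summed to at most 2.88 FPKM. The oocyte list summed to 4.97 to 7.08 FPKM in oEV-EMT and 2.56 to 3.35 in oEV-ctrl, without overlap. Most of it was *Zp2*, which overlapped (2.70 to 5.23 FPKM in oEV-EMT and 1.51 to 2.87 in oEV-ctrl). *Zp3* lay above in every oEV-EMT library (1.08 to 1.61 FPKM against 0.120 to 0.792). The sperm list summed to at most 3.40 FPKM.

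The depth of the libraries differed. Low values of genes with 1 transcript fell on repeated steps, from which oEV-EMT 1 was 2.07 times as deep as the shallowest library, oEV-ctrl 1, and the others between 1.21 and 1.82 times. The deepest library, oEV-EMT 1, held the highest values of *Ezr*, *Mark2*, *Scrib* and *Prkci*. The part of depth in those values was not tested.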

How the data were processed

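RNA of 3 oEV-EMT and 3 oEV-ctrl libraries, each of 10 blastocysts, was poly(A)-selected and sequenced by the authors, who aligned it to mm10 and assembled transcripts with StringTie (builds and tools per the labels, versions and aligner not given in the sources used here). The authors deposited 1 value per gene and library, described as TPM. Because the sums per library exceed 1000000 and differ, the deposited values were treated as FPKM. Genes that reached 1 FPKM in 3 or more libraries were fitted as log2(FPKM + 1) with limma 3.58.1 in R 4.3.3 (trended, robust), without further scaling, with Benjamini-Hochberg adjustment over 11924 genes. The thresholds followed the study, but its count test was not possible on FPKM. The fit was tested on simulated data, in which it did not call changes the size of the fold threshold. The absence of called genes therefore does not show that no gene differed. Symbols came from GENCODE M21 (55141 of the identifiers matched, 346 did not, and 287 entries were new_gene). Shared sequence means that at least 10% of the 50-base stretches of a gene occur in the other. Shares were compared by exact permutation tests in scipy 1.17.1, and figures drawn with matplotlib 3.10.9. Depth was read only as relative steps, and no counting interval was computed. The members, lists and tests were chosen with earlier results of these data known. All members were named, with up to 3 genes of smallest p-value per role group and the 5 genes most like the members' mean. Columns were matched to samples by name.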

Additional observations from a re-analysis of the deposited data

How the results depend on the processing

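No member of the polarity list and no gene of the wider list was called by limma under any alternative of scaling, filter, pseudocount, variance settings, replicate block or left-out library. Over all genes the count of calls was 0 in the values as deposited, 21 with the replicate number as a block, and between 0 and 17 with each library left out (4 without oEV-EMT 1, 1 without oEV-EMT 3, 17 without oEV-ctrl 3). Same-numbered libraries deviated from their group means with r of 0.12, -0.04 and 0.04, so the numbers were not taken as pairs, and not every library correlated best with its own number. The count of members without overlap was 1 of 10, beside 22.4% of all tested genes. It was 2 when each library was scaled to 1000000 with or without the new_gene entries (the latter chosen after seeing the data). The shares over all tested genes were then 25.4% and 26.1%. When single libraries were omitted, the count ranged from 1 to 5, and the share over all tested genes from 28.4% to 39.7%.
Some signs turned with scalings that move all genes alike, the median over all genes being 0.17 as deposited, 0.01 after median-of-ratios, -0.04 after upper quartile scaling and 0.23 with each library scaled to 1000000. Relative to that median, *Prkci*, *Llgl1*, *Cdc42* and *Ezr* kept their sign under these scalings. Not taken relative to the median, *Prkci* was at -0.12 and -0.18 after median-of-ratios and upper quartile scaling, and *Llgl1* at -0.064 and -0.11. On the same scale *Ezr* was at -0.0078 after upper quartile scaling. *Cdc42* was at 0.017 and 0.032 with each library scaled to 1000000, with and without new_gene entries. Omitting single libraries, *Prkci* ranged from -0.038 to 0.15, *Llgl1* from -0.032 to 0.14, and *Cdc42* from -0.25 to 0.068. On FPKM + 1 the share differences of *Pard3* and *Crb3* turned to -3.84 and 1.31 percentage points. Omitting single libraries, those of *Pard3* lay between -0.0214 and 0.147 points, of *Llgl1* between -1.21 and 4.48 and of *Crb3* between -0.0941 and 0.0859. In 99 of 110 recomputed log2 fold changes of members, leaving out settings that cannot move a fold change, the direction was kept. The causes were not tested.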
